A study of Saccharomyces cerevisiae with 6 samples.

Results

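The genes described are the 31 that encode the subunits of RNA polymerases I, II and III in the budding yeast Saccharomyces cerevisiae. They were taken by systematic identifier from a fixed list, and all 31 were among the 6603 open reading frames of the table. The list holds 7 subunits of polymerase I alone, 7 of polymerase II alone, 10 of polymerase III alone, 2 shared by polymerases I and III, and 5 shared by all 3 enzymes. The study compared purified yeast RNA that had self-assembled in vitro with total yeast RNA. The RNA of both groups was taken from BY4741 in log phase, a strain that lacks LEU2, URA3 and MET17 and has a partly deleted HIS3, and was extracted with phenol and chloroform. For 3 libraries, RNA at 150 µg/mL formed assemblies in 150 mM NaCl, 10% polyethylene glycol and 1 mM MgCl2, and the assemblies were spun down before sequencing. The other 3 libraries are of total RNA. Both groups were depleted of ribosomal RNA. The labels give the buffer for both groups and the spinning down for the assemblies alone, so whether the total RNA had also been in that buffer is unclear.

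RNA polymerase I transcribes the large ribosomal RNA precursor, polymerase II transcribes mRNAs and many small nuclear RNAs, and polymerase III transcribes tRNAs, 5S ribosomal RNA and other short RNAs. The enzymes have a common core: a pair of very large subunits that form the active centre, a heterodimer related to the bacterial alpha subunits, a stalk of paired subunits, a small zinc-ribbon subunit, and 5 small subunits that are the same protein in all 3. Polymerases I and III carry additional subunits related to the general transcription factors of polymerase II. The genes thus range from very long to very short coding sequences while serving the same machines.

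Depth was 8749240 to 10531980 reads assigned to open reading frames per library. The value given for a gene is its normalised read count, the reads divided by a size factor of the library, and these factors centre the median gene. All changes are therefore relative to that gene: when all libraries were brought to equal read totals, the log2 change of the median gene shifted by -0.56. All genes tested then split into 1584 higher (27.9%) and 3045 lower (53.7%), against 2342 and 2316 with the deposited scaling. LEU2 and MET17 were listed at 0 in all 6 libraries, and URA3 had 1 read in total RNA library 2 and none elsewhere. HIS3 had 159 to 293 normalised reads. STE2, the receptor of MATa cells, had 3381 to 4986 normalised reads and STE3, the receptor of the other mating type, 4.87 to 34.9. The labels do not name separate cultures or reactions for the 3 libraries of each kind, so p-values measure the spread between these samples alone, and it may be technical. Libraries 1 and 2 of total RNA were closer to each other (chi-square per degree of freedom 1.57) than any other pair within a group (12.1 to 59.8), and they were kept as separate libraries.

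The question was which polymerase mRNAs the assemblies held more or less of than total RNA. The mRNAs of the large catalytic subunits rose and those of most small subunits fell. Of the 31 genes, 9 were higher in assemblies, 19 were lower and 3 did not pass the test (limma on log2 of the value + 1, Benjamini-Hochberg adjusted over 5670 genes, threshold 0.05). Among all genes tested, 41.3% were called higher and 40.8% lower, 82.2% in all. With equal library totals the subunit genes split into 7 higher and 22 lower. The median log2 fold change was -0.85 over the 31 genes and 0.017 over all genes tested. The median coding length was 702 nt over the 31 genes and 1248 nt over all genes tested with a coding length. The 3 assembly values were all above the 3 total RNA values for 9 subunit genes and all below for 19. The same held for 42.7% and 42.6% of all genes tested, 85.3% in all.

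**Figure D1:**
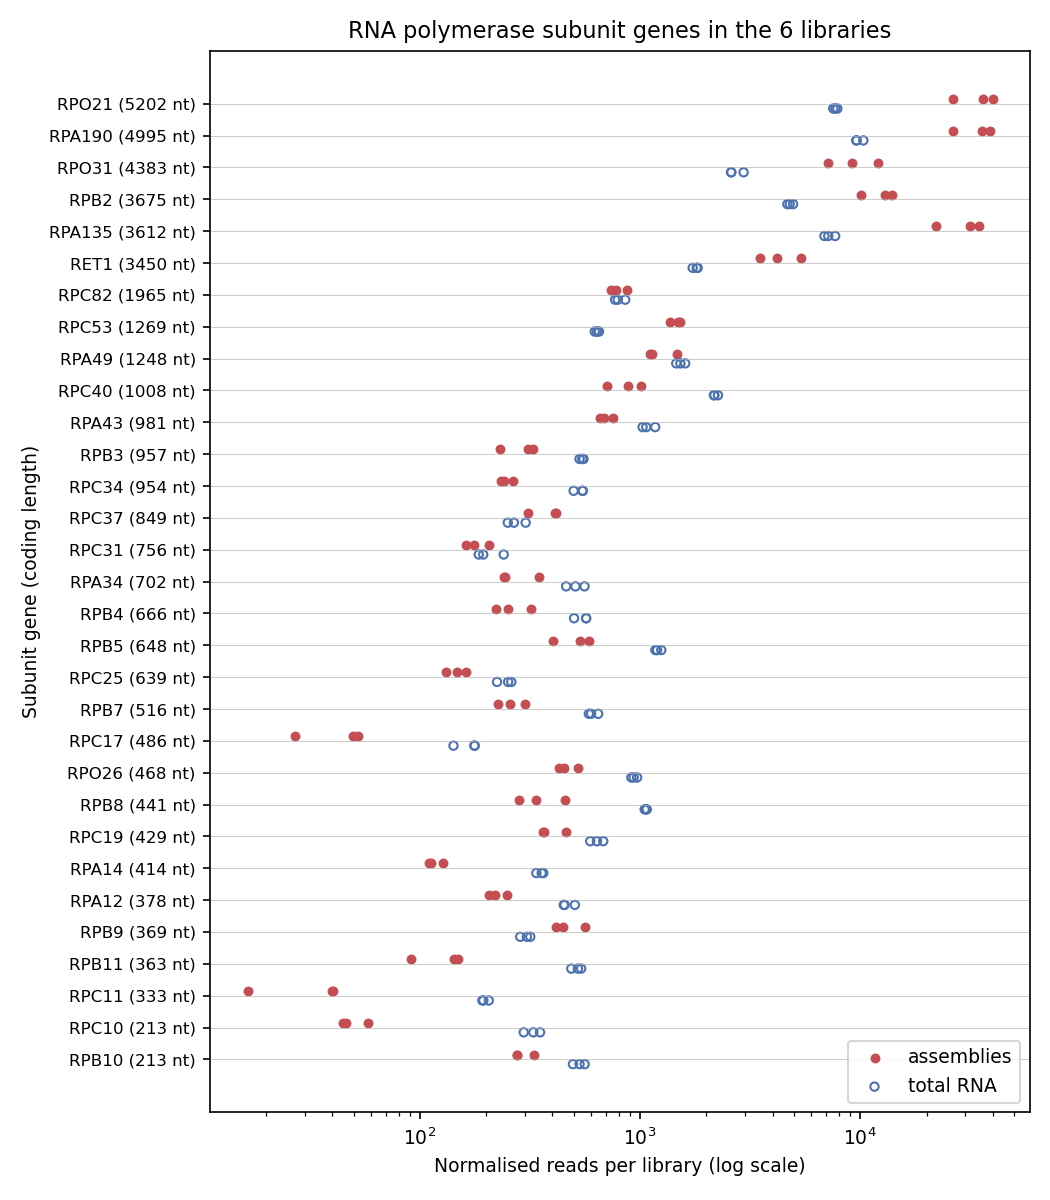
Normalised reads (horizontal axis, log scale) of each subunit gene in the 3 assembly libraries (filled points) and the 3 total RNA libraries (open points), with genes ordered by coding length. The 6 genes of 3450 nt and longer lie to the right in assemblies, and most shorter genes lie to the left, with RPB9, RPC37 and RPC53 among those that lie to the right.

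The largest subunit of each enzyme carries the bridge helix and much of the active site. RPO21 (YDL140C), the largest subunit of polymerase II, whose C-terminal repeats recruit RNA-processing factors, had 26388, 39872 and 36278 normalised reads in assembly libraries 1, 2 and 3, against 7711, 7868 and 7537 in the total RNA libraries in the same order. RPA190 (YOR341W), the largest subunit of polymerase I, had 26305, 35707 and 38994 in assemblies and 9634, 9588 and 10327 in total RNA. RPO31 (YOR116C), the largest subunit of polymerase III, had 7105, 9165 and 11976 in assemblies and 2598, 2588 and 2951 in total RNA. Every assembly value exceeded every total RNA value for these genes, and assembly library 1 was the lowest of its group for all 3. The log2 fold changes were 2.13 (SE 0.16) for RPO21, 1.75 (SE 0.16) for RPA190 and 1.77 (SE 0.18) for RPO31, that is 4.37-fold, 3.37-fold and 3.40-fold higher, with adjusted limma p-values of 3.67e-07, 1.04e-06 and 1.90e-06. The ratio of RPA190 to RPO31 mRNA within a library, which does not depend on the size factor, differed between groups by -0.011 on the log2 scale, within the spread of the libraries (1.85 ± 0.13 in assemblies against 1.86 ± 0.048 in total RNA, with n = 3 and the SD given for each; exact permutation test, 2-sided, p = 0.8).

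The second-largest subunit forms the other side of the active-centre cleft. RPB2 (YOR151C) of polymerase II had 10089, 12983 and 13973 normalised reads in assemblies and 4666, 4783 and 4955 in total RNA. RPA135 (YPR010C) of polymerase I had 22092, 31512 and 34513 in assemblies and 7154, 6875 and 7690.1 in total RNA. RET1 (YOR207C) of polymerase III had 3489, 4205 and 5393 in assemblies and 1807, 1734 and 1825 in total RNA. The groups did not overlap for any of the 3 genes. RPA135 had the larger change: its log2 fold change was 2.00 (SE 0.17), against 1.35 (SE 0.15) for RPB2 and 1.26 (SE 0.16) for RET1, with adjusted limma p-values of 6.17e-07, 3.59e-06 and 1.12e-05. The ratio of RPA135 to RET1 was 0.73 higher in assemblies on the log2 scale, and that of RPB2 to RPA135 was 0.65 lower. The groups did not overlap in either ratio, and a 2-sided exact permutation test gave p = 0.1 for both, its smallest value with 3 libraries in each group. Coding sequences of these 6 genes run from 3450 to 5202 nt, and 99.2% of all tested genes of 3000 nt and over were called higher.

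**Figure D2:**
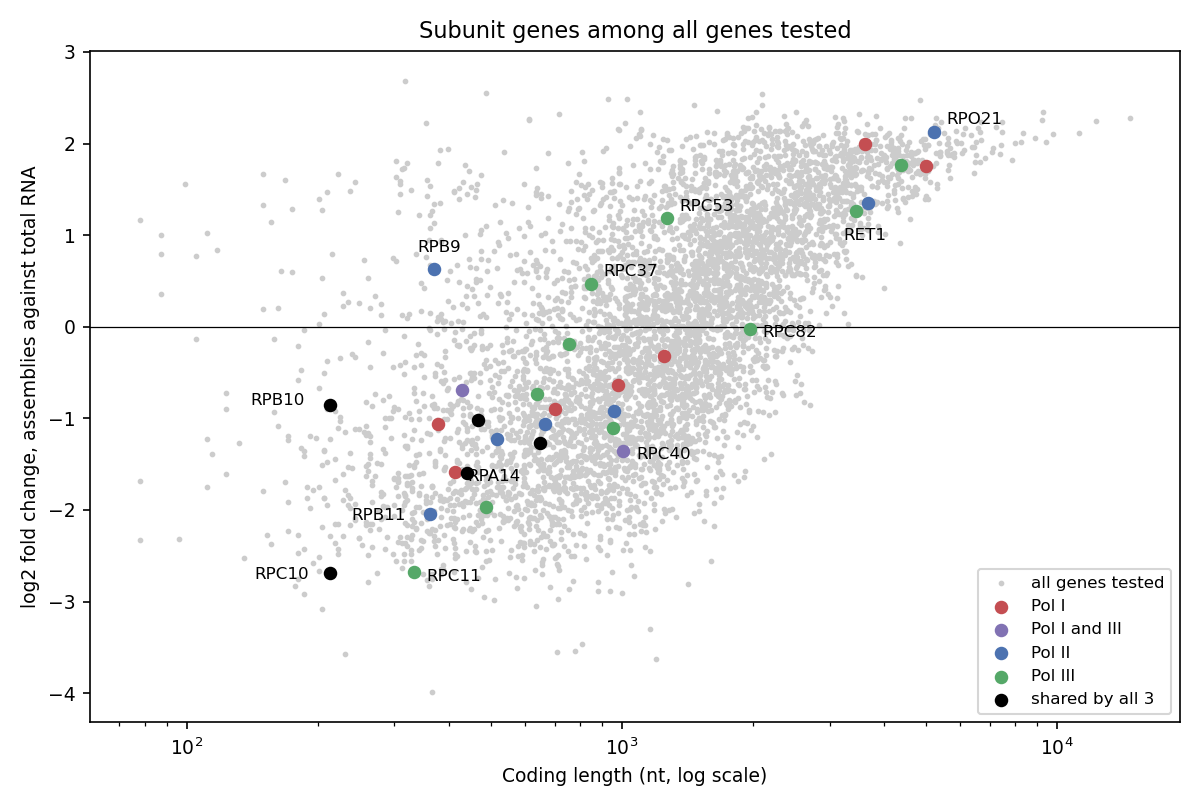
Log2 fold change (assemblies against total RNA, limma) against coding length (nt, log scale) for all genes tested (grey) and for the subunit genes, coloured by enzyme. The 6 longest subunit genes sit between 1.26 and 2.13, RPB9 at 0.63 lies above most genes of its length, and RPC10 and RPC11 at -2.69 and -2.68 lie lowest of the subunit genes.

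Across the 31 genes the log2 fold change was higher the longer the coding sequence, as the plot of change against length shows. Spearman's rank coefficient was 0.741 and Pearson's r with log2 length was 0.848. Over 5504 nuclear genes tested the values were 0.676 and 0.647. Taken 1 assembly library at a time against mean total RNA, the rank coefficients were 0.771, 0.762 and 0.708. Without the 6 largest subunits the rank coefficient was 0.512 over 25 genes, and among the 21 genes under 1000 nt it was 0.425, against 0.222 over 2082 nuclear genes under 1000 nt. These are descriptions across genes measured in the same libraries. All coding lengths leave out untranslated regions.

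The heterodimer related to the alpha subunits of the bacterial enzyme nucleates assembly of the polymerases. In polymerase II it is formed by RPB3 (YIL021W) and RPB11 (YOL005C), and in polymerases I and III by RPC40 (YPR110C) and RPC19 (YNL113W), and all 4 mRNAs fell. RPB11 fell most, with 149, 143 and 90.8 normalised reads in assemblies and 522, 487 and 539.6 in total RNA (log2 fold change -2.04, SE 0.18, limma adjusted p = 7.45e-07). RPC40 had 1011, 878 and 711 in assemblies and 2175, 2164 and 2258 in total RNA (-1.36, SE 0.14). RPB3 had 309, 326 and 232 in assemblies and 546, 531 and 553 in total RNA (-0.92, SE 0.15). RPC19 had 463, 366 and 363 in assemblies and 637, 594 and 680.3 in total RNA (-0.69, SE 0.14). Assembly values lay below total RNA values in every case, and assembly library 3 was the lowest of its group for all 4. The coding sequences of the small partners are 363 nt and 429 nt. The RPB11 to RPC19 ratio on the log2 scale was -1.66 ± 0.32 in assemblies against -0.30 ± 0.027 in total RNA (n = 3, SD; exact permutation test, 2-sided, p = 0.1, the smallest possible). RPB11 has 49.9% GC, RPC19 has 40.3%. Among all genes tested 40.8% were called lower, and among those under 1000 nt 70.6%. With length and GC content fitted out (described below), RPB11 (-1.59), RPC40 (-0.73) and RPB3 (-0.39) were lower and RPC19 (0.58) was higher.

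The zinc-ribbon subunits take part in RNA cleavage, proofreading or termination by the 3 enzymes, and they are encoded by short genes that moved apart. RPB9 (YGL070C) of polymerase II, which bears on start-site choice and fidelity, had 445, 559 and 414 normalised reads in assemblies and 286, 306 and 317 in total RNA. RPA12 (YJR063W) of polymerase I had 249.7, 207 and 219 in assemblies and 450.2, 454 and 506 in total RNA. RPC11 (YDR045C) of polymerase III, which is needed for termination and RNA cleavage, had 40.2, 39.9 and 16.5 in assemblies and 194, 192 and 205 in total RNA. RPB9 was higher in all assembly libraries than in any total RNA library, whereas RPA12 and RPC11 were lower in all of them. Assembly library 3 held 14 reads of RPC11, against 33 in each of the other assembly libraries. The log2 fold changes were 0.63 (SE 0.14, limma adjusted p = 0.00128) for RPB9, -1.06 (SE 0.13, adjusted p = 9.98e-06) for RPA12 and -2.68 (SE 0.29, adjusted p = 3.19e-06) for RPC11. RPB9 was not called with equal library totals (0.064, limma adjusted p = 0.688). Of all tested genes under 1000 nt, 14.4% were called higher and 70.6% lower. Of the 21 subunit genes in that range, 18 were lower, 1 was not called, and RPB9 and RPC37 (YKR025W) were higher, neither of them with equal library totals.

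The differences within this family do not rest on the scaling, since ratios were taken within each library. The RPB9 to RPA12 ratio was 0.83, 1.43 and 0.91 on the log2 scale in assemblies, against -0.66, -0.57 and -0.67 in total RNA, a difference of 1.69 (3.22-fold). The RPB9 to RPC11 ratio was 3.44, 3.77 and 4.57 in assemblies and 0.55, 0.67 and 0.62 in total RNA, a difference of 3.31 (9.92-fold). RPB9 passed from the less abundant to the more abundant of the pair with RPA12 in every assembly library. The log2 ratio of the largest subunit to the zinc-ribbon subunit was higher in assemblies for all 3 enzymes, by 1.50 for RPO21 over RPB9, by 2.81 for RPA190 over RPA12 and by 4.45 for RPO31 over RPC11 (3.85 without assembly library 3). Each of these ratios gave p = 0.1 (exact permutation test, 2-sided, n = 3 each), the smallest possible, and 0.125 after Benjamini-Hochberg adjustment over 35 ratios. Of the 35 ratios, 28 reached this smallest value and 7 overlapped between groups. Ratios of other gene pairs were not counted, so whether 28 of 35 is unusual was not tested. Values of single genes did not overlap between groups for 85.3% of all genes tested. The largest subunits have coding sequences of 4383 to 5202 nt, the zinc-ribbon subunits of 333 to 378 nt. With length and GC content fitted out (described below), the log2 fold changes were 0.065 for RPO21 and 2.00 for RPB9. They were -0.050 for RPA190 and 0.15 for RPA12, and -0.024 for RPO31 and -1.27 for RPC11.

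The 3 coding sequences have similar length, and cysteines they encode bind the zinc of the ribbon. Shown are the last 120 bases of each coding sequence, 5′ to 3′ on the coding strand, with T for U and with in-frame cysteine codons in capitals (RefSeq annotation of build R64). The genes were picked because they are alike in size and role and RPB9 changed in the other direction with the deposited scaling. Each whole coding sequence has 8 such codons.
RPB9: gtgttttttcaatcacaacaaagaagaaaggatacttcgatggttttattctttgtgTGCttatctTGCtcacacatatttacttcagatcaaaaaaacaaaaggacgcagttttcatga
RPA12: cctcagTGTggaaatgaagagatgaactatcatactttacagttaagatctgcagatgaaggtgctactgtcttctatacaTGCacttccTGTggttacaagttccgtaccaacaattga
RPC11: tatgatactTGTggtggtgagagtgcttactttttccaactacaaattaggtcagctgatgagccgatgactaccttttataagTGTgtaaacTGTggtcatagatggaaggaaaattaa
RPB9 (369 nt) ends at chrVII:374459-374578 on the minus strand, RPA12 (378 nt) at chrX:555453-555572 on the plus strand and RPC11 (333 nt) at chrIV:547978-548097 on the minus strand. All 3 are single-exon genes without an overlapping gene in RefSeq, and their GC contents are 39.6%, 41.3% and 39.0%.

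**Figure D3:**
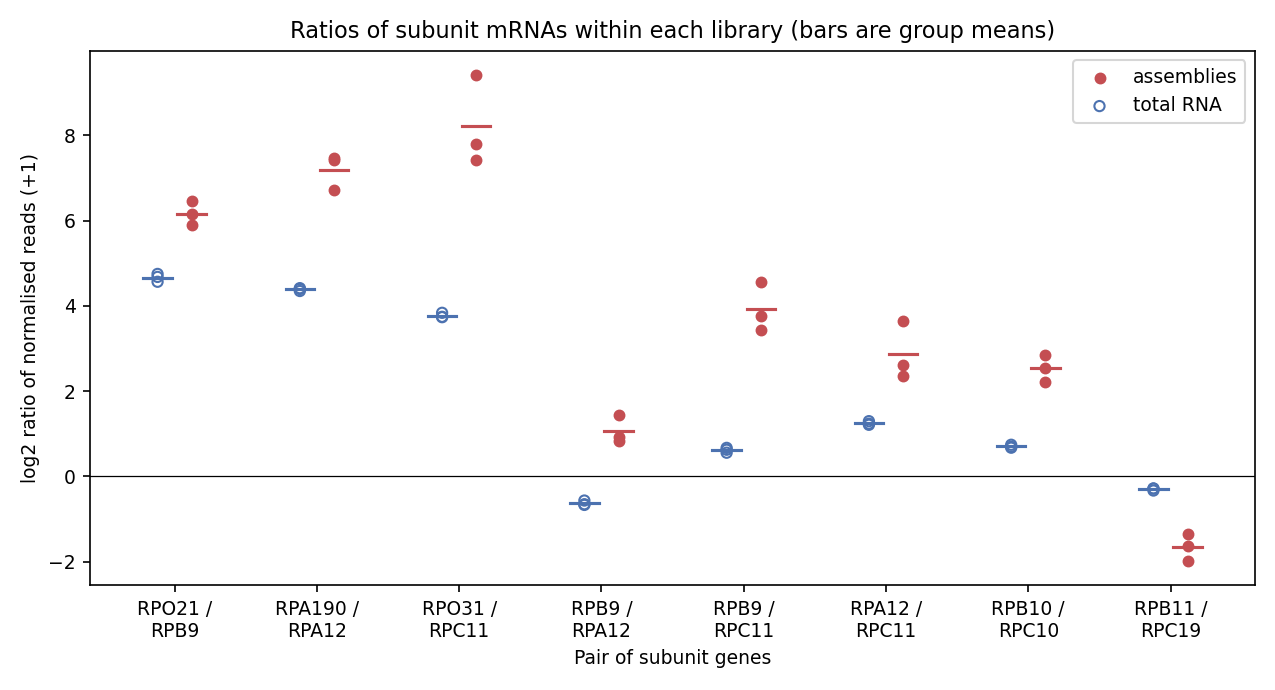
Log2 ratio of the normalised reads (each + 1) of pairs of subunit genes within each assembly library (filled points) and each total RNA library (open points), with bars at the group means. The pairs shown are a selection in which the groups do not overlap, and 7 of all 35 ratios taken do overlap. Of the pairs shown, the RPO31 to RPC11 ratio moves furthest, from 3.77 to 8.22.

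The stalk binds the nascent RNA and initiation factors. In polymerase II it consists of RPB7 (YDR404C) and RPB4 (YJL140W), in polymerase I of RPA43 (YOR340C) and RPA14 (YDR156W), and in polymerase III of RPC25 (YKL144C) and RPC17 (YJL011C), and all 6 mRNAs fell. RPC17 fell most, with 52.4, 49.6 and 27.1 normalised reads in assemblies and 142, 177 and 177 in total RNA (log2 fold change -1.97, SE 0.24, limma adjusted p = 9.13e-06). RPA14 had 128, 110.1 and 112 in assemblies and 363, 338 and 357 in total RNA (-1.59, SE 0.13, adjusted p = 4.76e-07). At 51.0% GC it is the most GC-rich of the 31 coding sequences, and it overlaps 8 bases of YDR157W, so reads there cannot be assigned to 1 gene. The log2 fold changes of the remaining stalk genes were -1.23 (SE 0.14) for RPB7, -1.06 (SE 0.15) for RPB4, -0.74 (SE 0.14) for RPC25 and -0.64 (SE 0.12) for RPA43. Assembly and total RNA values did not overlap for any of them. In each pair the gene with the longer coding sequence (RPA43, RPC25 and RPB4) had the smaller change, and for RPB4 and RPB7 the SEs are nearly as large as the difference. All 6 coding sequences are under 1000 nt, and 70.6% of all tested genes in that range were called lower. With length and GC content fitted out (described below), RPA14 (-1.25) and RPC17 (-0.60) were lower and RPC25 (0.46) was higher. RPB7 (0.10), RPB4 (0.028) and RPA43 (0.075) were then not called.

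Polymerases I and III also hold heterodimers related to the polymerase II factor TFIIF, RPA49 (YNL248C) with RPA34 (YJL148W) and RPC37 with RPC53 (YDL150W). Both genes of the polymerase III pair rose, RPC37 not with equal library totals, and neither gene of the polymerase I pair did. RPC53 had 1512, 1364 and 1493 normalised reads in assemblies and 650.4, 622 and 637 in total RNA (log2 fold change 1.19, SE 0.12, limma adjusted p = 1.59e-06). RPC37 had 412, 416 and 311 in assemblies and 302, 267 and 251 in total RNA. Its log2 fold change of 0.46 (SE 0.15, adjusted p = 0.0122) turned to -0.10 with equal library totals, and its call was lost without assembly library 2 (adjusted p = 0.0550) or total RNA library 3 (adjusted p = 0.0527). RPA34 had 346, 239.7 and 243 in assemblies and 462, 508 and 559 in total RNA (-0.90, SE 0.16, adjusted p = 0.000233). RPA49 had 1474, 1134 and 1109 in assemblies and 1525, 1459.8 and 1603 in total RNA, which overlap, and was not called (-0.31, SE 0.14, adjusted p = 0.0519). RPA49 was called lower with equal library totals (-0.88) and by edgeR's quasi-likelihood test on recovered reads (adjusted p = 0.0190), DESeq2 (adjusted p = 0.0475) and limma without assembly library 1 (adjusted p = 0.00174). RPC53 and RPA49 have coding sequences of 1269 and 1248 nt, and RPA34 has a shorter one of 702 nt. The RPA34 to RPC53 ratio, of genes unlike in length, differed between assemblies and total RNA by -2.09 on the log2 scale (exact permutation test, 2-sided, p = 0.1, the smallest possible).

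The polymerase III trimer of RPC82 (YPR190C), RPC34 (YNR003C) and RPC31 (YNL151C) is related in part to TFIIE and helps to recruit the enzyme to its promoters. RPC34 had 264, 242 and 235 normalised reads in assemblies and 549.9, 499 and 546 in total RNA (log2 fold change -1.10, SE 0.12, limma adjusted p = 4.46e-06). RPC82 had 869, 736 and 774 in assemblies and 792, 769.5 and 856 in total RNA (-0.025, SE 0.12, adjusted p = 0.857). RPC31 had 177, 206 and 161 in assemblies and 240.2, 194 and 185 in total RNA (-0.18, SE 0.15, adjusted p = 0.281). The groups overlapped for RPC82 and RPC31, and both were called lower with equal library totals (-0.59 and -0.75), while with quantile normalisation RPC31 stood at 0.27, not called, and RPC82 was called lower (-0.42, limma adjusted p = 0.00367). With length and GC content fitted out RPC82 was also called lower (-0.61, limma adjusted p = 0.00128) and RPC31 higher (0.84, limma adjusted p = 0.000933). The ratio of RPC82 to RPC34 was 1.08 higher in assemblies on the log2 scale and did not overlap between groups. RPC82 has the longest coding sequence of the genes not called, 1965 nt.

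The 5 subunits shared by all 3 enzymes are RPB5 (YBR154C), RPO26 (YPR187W), RPB8 (YOR224C), RPB10 (YOR210W) and RPC10 (YHR143W-A), and all 5 mRNAs fell. RPC10, which is also known as RPB12, fell most of the 5, by about as much as RPC11 (-2.68, SE 0.29), with 46.3, 58.1 and 44.8 normalised reads in assemblies and 296, 327 and 351 in total RNA. It was 6.45-fold lower in assemblies (log2 fold change -2.69, SE 0.16, limma adjusted p = 3.17e-07). RPB10, which has the same coding length of 213 nt, had 275, 274.8 and 329 in assemblies and 496, 531 and 560.1 in total RNA and was 1.81-fold lower (-0.85, SE 0.13, adjusted p = 6.07e-05). The lowest total RNA value exceeded the highest assembly value for both genes. RPB8 (-1.59, SE 0.16), RPB5 (-1.27, SE 0.15) and RPO26 (-1.01, SE 0.12) lay between them. RPO26, the only subunit gene whose RefSeq model has an intron, of 76 nt, had 520.2, 428 and 450.3 normalised reads in assemblies and 912, 935 and 969 in total RNA. The RPB10 to RPC10 ratio was 2.55, 2.22 and 2.85 on the log2 scale in assemblies and 0.74, 0.70 and 0.67 in total RNA, a difference of 1.84 or 3.57-fold (exact permutation test, 2-sided, p = 0.1, the smallest possible). All 5 coding sequences are under 1000 nt, and 70.6% of all tested genes in that range were called lower. With length and GC content fitted out (described below), RPC10 (-1.65) and RPB8 (-0.53) were lower and RPB10 (0.60) was higher. RPB5 (-0.0037) and RPO26 (0.20) were then not called.

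The whole coding sequences of RPB10 and RPC10 are shown because they have the same number of bases and serve the same 3 enzymes while their change differed. They are given 5′ to 3′ with T for U and with in-frame cysteine codons in capitals (RefSeq, build R64).
RPB10: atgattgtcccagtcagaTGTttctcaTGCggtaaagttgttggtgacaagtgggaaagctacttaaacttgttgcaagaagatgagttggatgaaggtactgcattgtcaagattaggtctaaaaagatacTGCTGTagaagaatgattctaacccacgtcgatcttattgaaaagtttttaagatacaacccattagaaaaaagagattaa
RPC10: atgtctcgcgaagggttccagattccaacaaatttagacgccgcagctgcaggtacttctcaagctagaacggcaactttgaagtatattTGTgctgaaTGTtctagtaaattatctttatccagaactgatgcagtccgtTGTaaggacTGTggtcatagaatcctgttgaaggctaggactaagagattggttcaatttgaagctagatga
RPB10 lies at chrXV:738320-738532 and RPC10 at chrVIII:387233-387445, both on the plus strand and both single-exon genes without an overlapping gene in RefSeq. Each has 4 cysteine codons. GC content is 36.2% in RPB10 and 41.8% in RPC10.

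Levels of different genes were compared as normalised reads per kilobase of coding sequence. In total RNA the highest were RPB10 (2483 ± 152, mean ± SD, n = 3) and RPB8 (2408 ± 26.4), whose values overlap, followed by RPC40 (2182 ± 51.1), and the lowest was RPC31 (273 ± 39.2). The 10 subunits of polymerase III alone ranged from 273 to 619 reads per kilobase, below all 7 subunits of polymerase I alone (726 to 2004). In assemblies the order changed: RPA135 (8132 ± 1794), RPA190 (6740.4 ± 1318) and RPO21 (6570.4 ± 1342) stood highest, with values that overlap, and RPC17 (88.6 ± 28.5) and RPC11 (96.7 ± 40.9) lowest, again with overlapping values. RPC10 passed from rank 8 of 31 to rank 28, RPB9 from rank 18 to rank 7 and RPO31 from rank 21 to rank 5. Levels per kilobase of coding sequence take no account of untranslated regions.

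The subunit genes together took 1.00%, 1.17% and 1.21% of the reads in the assemblies, against 0.642%, 0.641% and 0.629% in total RNA. These shares do not depend on size factors. The 6 genes of the large catalytic subunits made up 92.1% ± 2.36 of the subunit reads in assemblies, against 67.5% ± 0.147 in total RNA (n = 3, SD). Without these 6 genes the other 25 took 0.207% ± 0.00290 of reads in total RNA and 0.0875% ± 0.0165 in assemblies. The 5 shared subunits took 0.0512% ± 0.00122 in total RNA and 0.0144% ± 0.00290 in assemblies. All of these differences gave the smallest p possible (exact permutation test, 2-sided, p = 0.1). By enzyme, the genes of polymerase I alone went from 0.265% of reads in total RNA to 0.554% in assemblies, those of polymerase II alone from 0.190% to 0.405% and those of polymerase III alone from 0.0954% to 0.144%. With the deposited scaling, the median log2 fold changes of the genes in these sets were -0.64, -0.92 and -0.10 in the same order.

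To see which subunits departed from other genes of like size and composition, a curve in coding length and GC content was fitted to each library across 5504 nuclear genes and removed before the test. Of the 31 genes, 8 were then higher, 11 lower and 12 not called, where 34.4% of all genes were higher and 35.4% lower, 69.7% in all. The median log2 fold change was -0.0035 over the 31 genes and -0.017 over all genes tested. RPB9 stood highest at 2.00 (SE 0.13, limma adjusted p = 6.34e-06). RPC53 followed at 1.14 (SE 0.083), RPC37 at 0.96 (SE 0.12) and RPC31 at 0.84 (SE 0.15). Of the 10 genes of polymerase III alone, 4 were higher, 4 lower, among them RPC82 (-0.61), RPC17 (-0.60) and RPC34 (-0.48), and 2 not called, with a median of -0.087. RPC10 stood lowest at -1.65 (SE 0.15, adjusted p = 1.95e-05), with RPB11 at -1.59 (SE 0.16), RPC11 at -1.27 (SE 0.25) and RPA14 at -1.25 (SE 0.11). RPB10 was called higher at 0.60 (SE 0.14, adjusted p = 0.00473) and RPC19 at 0.58 (SE 0.095). Of the large catalytic subunits, RPO21 (0.065), RPA190 (-0.050), RPO31 (-0.024) and RET1 (-0.15) were not called, RPA135 was higher (0.35, adjusted p = 0.00365) and RPB2 was lower (-0.21, adjusted p = 0.0166).

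**Figure D4:**
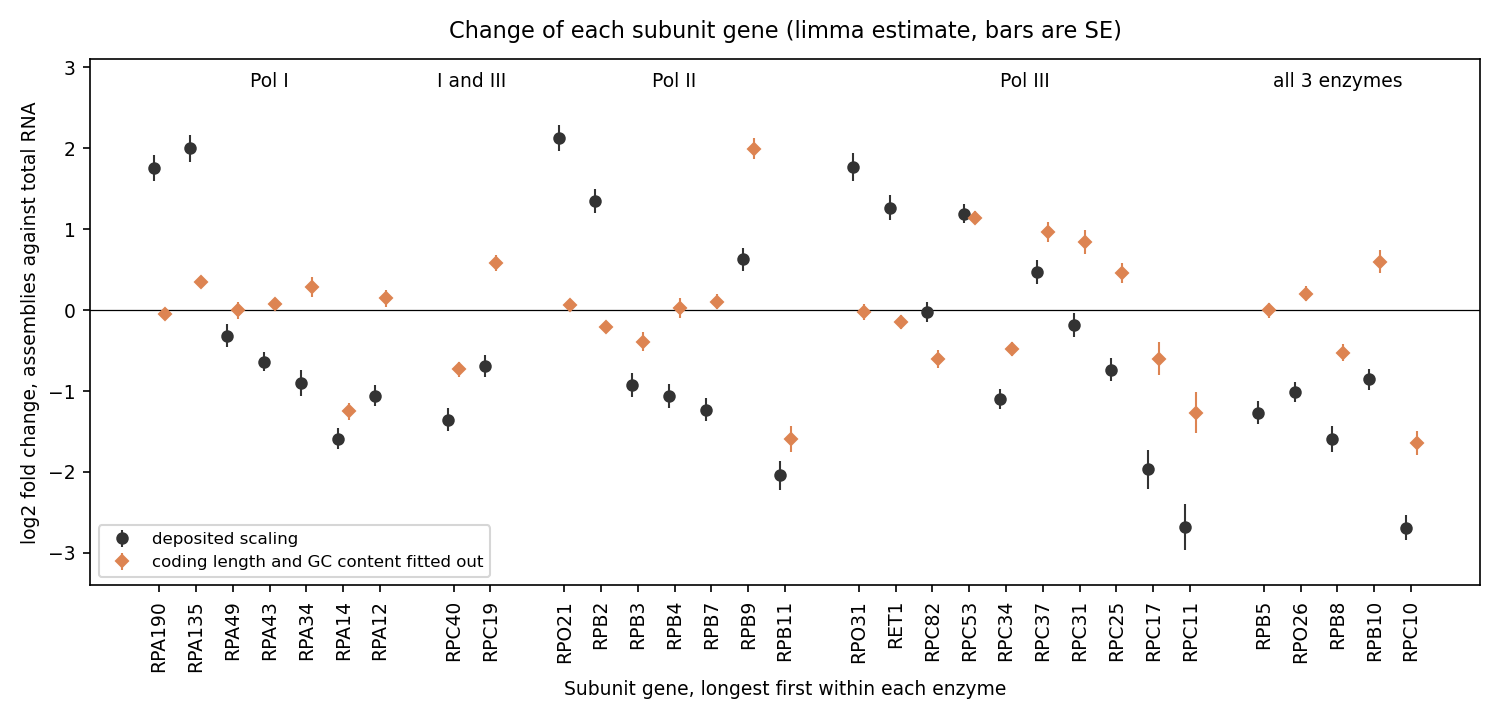
Log2 fold change of each subunit gene (limma estimate, bars are SE) with the deposited scaling (circles) and with coding length and GC content fitted out (diamonds), grouped by enzyme and ordered from long to short. Once length and GC content are fitted out, RPA135 lies at 0.35 and RPB2 at -0.21, and the other large subunits lie nearer 0. RPB9 moves from 0.63 to 2.00 and RPC10 from -2.69 to -1.65.

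Factors that work with the enzymes were counted from lists of their genes, to be read against 41.3% higher and 40.8% lower among all genes tested, or 27.9% and 53.7% with equal library totals. Of 8 polymerase I factors, 5 were higher and 2 lower in assemblies (2 and 3 with equal library totals), with a median log2 fold change of 0.64. RRN6 (1.47) and RRN7 (1.30) of the core factor and RRN5 (0.71) of the upstream activating factor rose most, and RRN10 (-1.56) and UAF30 (-0.85), also of the upstream activating factor, fell. RRN5 was not called with equal library totals (0.15). Of 36 polymerase II initiation and elongation factors, 14 were higher and 14 lower (10 and 21 with equal library totals), with a median of -0.11. TAF5 (2.10) and TAF8 (1.83), subunits of TFIID, and SPT6 (2.03), a histone chaperone of elongating polymerase, rose most. TFB5 (-2.36), the smallest subunit of TFIIH, TOA2 (-2.34), the small subunit of TFIIA, and SPT4 (-2.29), the partner of the elongation factor SPT5, fell most. TFB5 had only 14.6, 23.0 and 4.71 normalised reads in assemblies and an SE of 0.43, so its place in this order is not resolved. Of 10 polymerase III factors, 4 were higher and 2 lower (3 and 6 with equal library totals), with a median of 0.16. TFC4 (1.82) and TFC3 (1.50) of TFIIIC and BDP1 (1.14) of TFIIIB rose most, and TFC8 (-0.87) of TFIIIC and PZF1 (-0.79), the yeast TFIIIA, fell. The adjusted limma p-values of the named factors lay between 3.17e-07 for TAF5 and 0.00364 for UAF30. Coding sequences of the named factors ran from 219 nt (TFB5) to 4356 nt (SPT6). With length and GC content fitted out, RRN5 (-0.030), RRN10 (-0.28), UAF30 (0.27), TFB5 (-0.94), TFC3 (0.081) and PZF1 (-0.41) were not called. The other named factors kept their call, among them SPT6 at 0.39, TAF8 at 1.43 and SPT4 at -1.63.

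The authors' deposited table gave no p-value for 4 of the 31 genes, RPA49, RPC82, RPC31 and RPC37, and a fold change of 1.39 for RPC37. The first 3 were also not called by limma. The authors' deposited table listed its smallest p-value among the 31 genes for RPC10 (1.14e-28, fold change 0.153).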

How the data were processed

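The 6 libraries are 3 of assemblies and 3 of total RNA. For reads and mapping, the submitters' processing notes name FastQC, Trimmomatic 0.32, Bowtie 0.12.7 and build R64; for counting and testing they name HTSeq and DESeq 1.22.1. The sources used here do not say which annotation was counted, whether strand was used or how reads with several matches were treated. Each open reading frame has a deposited signal per library (normalised reads, per the file headers). The authors' fold change is the ratio of the group means, and their DESeq p-value is listed only up to 0.00995. Every nonzero deposited signal (100%) equalled a whole number of reads times 1 factor per library within 0.01. These recovered reads gave depth, shares and the fits by edgeR 4.0.16 and DESeq2 1.42.0.

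The main fit used limma 3.58.1 in R 4.3.3 with a mean-variance trend, on log2(value + 1), a scale that understates changes of weak genes. It covered 5670 genes whose mean reached 10, tested 2-sided, and all 31 subunit genes were among them. RefSeq build R64 gave names, positions and coding sequences for 5916 of 6603 identifiers. BLAST 2.17.0 found no near-identical copy of a subunit gene (95% identity, 50% of the coding sequence). Length and GC content were fitted with splines of 5 and 3 degrees of freedom. The test was checked on simulated counts in which most genes were unchanged and changes were balanced in direction, without a length trend. That check does not cover data in which most genes are called, as here. Alternatives covered scaling, pseudocount, filter, tool, replicate block and each library left out.

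The genes and lists were chosen with earlier results of these data known. All subunit genes are named, and of each factor list the 3 highest and 3 lowest fold changes among called genes. Strain markers and mating receptors were added as checks. The table had 4 lines without values, not analysed here. Reads without molecular identifiers are not independent molecules.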

Additional observations from a re-analysis of the deposited data

How the results depend on the processing

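Of the 31 subunit genes, 11 kept direction and call under all 18 alternatives, and 27 under all but equal library totals and the fits for length and GC content. With coding length and GC content fitted out, 11 subunit genes were lower, and 14 genes changed sign: RPA190 -0.050, RPA34 0.28, RPA43 0.075, RPA12 0.15, RPC19 0.58, RPB2 -0.21, RPB7 0.10, RPB4 0.028, RPO31 -0.024, RET1 -0.15, RPC25 0.46, RPC31 0.84, RPO26 0.20 and RPB10 0.60. Of these, RPC19, RPB2, RPC25, RPC31 and RPB10 were called with the new sign, and the others were not called. RPC37 turned to -0.10 with equal library totals, and RPC31 to 0.27 with quantile normalisation. With each library left out in turn, RPC82 ranged from -0.092 to 0.027 and the log2 difference in the RPA190 to RPO31 ratio from -0.066 to 0.063. The cause of these changes was not tested. With equal library totals 2 polymerase I factors were higher and 6 polymerase III factors lower. With quantile normalisation 1 polymerase I factor and 1 polymerase III factor were lower, and with length and GC content fitted out 0 and 4. The share of reads differed by -0.12 percentage points without the 2 largest subunits of each polymerase, whose genes were left out by construction. Pearson's r with log2 length was 0.848.

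The libraries share replicate numbers, and whether the numbers pair them is unclear. Same-numbered libraries correlated in their deviations from the group means by 0.0777, 0.167 and 0.276. Libraries with different numbers correlated by -0.264 to 0.22. A replicate block changed the call of 1 subunit gene, RPA49 (-0.31, limma adjusted p = 0.0411). The replicate block with length and GC content fitted out gave the fold changes listed above, 11 lower subunit genes, and 0 polymerase I and 5 polymerase III factors lower. Depth limits the weakest genes most: RPC11 had 14 to 33 reads in assembly libraries.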
